A study of Mus musculus with 10 samples.

Results

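Replication-dependent histone genes supply the bulk of new chromatin protein during S phase, and they were examined here as the 67 protein-coding genes whose GENCODE name on GRCm38 begins with Hist1h, Hist2h, Hist3h or Hist4, out of 21951 protein-coding genes in all. Of the 67, 6 encode the linker histone H1, 18 encode H2A, 18 encode H2B, 12 encode H3 and 13 encode H4. They lie in 7 blocks separated by more than 100 kb. The Hist1 cluster on chromosome 13 holds 54 genes in 4 blocks, with 29 genes at chr13:23531050-23764406, 18 at chr13:21715763-21837530, 5 at chr13:22035164-22043676 and the pair Hist1h2ba and Hist1h2aa at chr13:23933773-23934851. The Hist2 cluster holds 10 genes at chr3:96219865-96270132, Hist3h2ba and Hist3h2a share 7.91 kb of chromosome 11 at chr11:58948920-58956830, and Hist4h4 lies alone at chr6:136801553-136804415.

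H2A, H2B, H3 and H4 form the core of the nucleosome, around which DNA is wrapped, and H1 binds the DNA between nucleosomes. The replication-dependent genes lack introns as a rule, give short transcripts that end in a stem-loop in place of a poly(A) tail, and are switched on when cyclin E and CDK2 phosphorylate the coactivator NPAT at the histone gene clusters. CDK2 is also a target of p27, the inhibitor encoded by Cdkn1b, and cells that leave the cycle stop making most of these mRNAs. The question was how accessibility at these genes stood in proliferating cells and at the onset of differentiation, with and without p27.

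ATAC-seq, in which a transposase cuts open chromatin, had been run on bulk cultures of adult neural stem cells, derived from the subependymal zone (SEZ) at 10 weeks of age, from wild type mice (WT) or Cdkn1b mutant mice that lack p27 (p27KO). Proliferating cells (PRO, 3 WT and 2 p27KO libraries) grew as neurospheres in EGF (20 ng/ml) and FGF (10 ng/ml) for 3 DIV per the labels, although the study's results name a longer growth. Cells at the onset of differentiation (DIFF, 2 + 1 DIV, 3 WT and 2 p27KO libraries) had been plated on Matrigel with FGF for 2 days and then deprived of mitogens for 24 h in 2% serum. Mitogens, substrate and serum therefore changed together and cannot be told apart. In such bulk samples, fewer cells with an open site and a less open site per cell cannot be told apart either. The study's methods call the libraries biological replicates, the animals behind them are not given in the sources used here, and p-values measure the spread between these libraries.

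The 10 peak lists held 57534 to 91801 peaks. Among the WT DIFF libraries, replicate 3 had 88738 peaks against 61783 and 57534 in the others. How many reads lie behind them is unknown. The free-text descriptions of p27KO samples read WT, unlike their titles and genotype fields, but a peak at the Cdkn1b start was present in all 6 WT libraries and in 0 of 4 from p27KO. Of 8 neural stem cell markers, 7 had a peak at the start in all 10 libraries and Pax6 had one in 1 library. Starts of 3 of 4 microglial, 2 of 4 endothelial and 3 of 3 blood markers had no peak in any library. The fourth microglial marker, P2ry12, had a peak in all 10 libraries that fell at DIFF in WT (difference of normal scores −1.22, adjusted p = 0.00955 by limma) and differed by −1.22 in p27KO (adjusted p = 0.0561). The endothelial marker Kdr had a peak in all 10 libraries and differed by −0.59 in WT (adjusted p = 0.164) and −0.26 in p27KO (adjusted p = 0.737), and Cldn5 had one in 1 library. The part of these cell types in the results below was not tested.

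The histone promoters themselves are compact. In 12 places an H2A gene and an H2B gene are transcribed away from each other, with 175 to 305 bp between their starts and a median of 258.5 bp, so that a single stretch of DNA serves both genes. The pairs are shown by 2 examples, the one with the highest fold enrichment in these cultures, of which 300 of 301 bp are given, and the pair expressed in the male germ line, of which 300 of 305 bp are given. Capitals mark the CCAAT box, the TATA box (the letters TATAAA), the octamer bound by POU factors (the letters ATTTGCAT) and the H1 box (the letters AAACACA) on either strand. Both are read on the plus strand of GRCm38 at chr13:22035570-22035869 and chr13:23934162-23934461.
Hist1h2ah and Hist1h2bk: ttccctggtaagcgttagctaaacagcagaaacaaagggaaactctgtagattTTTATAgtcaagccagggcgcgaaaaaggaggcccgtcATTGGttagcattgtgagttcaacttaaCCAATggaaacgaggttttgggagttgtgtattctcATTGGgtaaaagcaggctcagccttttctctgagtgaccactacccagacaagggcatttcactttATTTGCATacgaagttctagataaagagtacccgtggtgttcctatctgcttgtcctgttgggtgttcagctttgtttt
Hist1h2ba and Hist1h2aa: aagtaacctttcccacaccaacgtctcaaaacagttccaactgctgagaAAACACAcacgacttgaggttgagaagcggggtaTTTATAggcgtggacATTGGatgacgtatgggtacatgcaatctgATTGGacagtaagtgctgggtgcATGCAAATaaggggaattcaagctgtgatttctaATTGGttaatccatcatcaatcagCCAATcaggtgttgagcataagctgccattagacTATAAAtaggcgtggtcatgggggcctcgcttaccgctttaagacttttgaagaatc

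All 12 divergent H2A and H2B pairs held a CCAAT box between their starts, with a median of 3, while 7 held TATAAA and 5 held the octamer. The stretch between Hist1h2ba and Hist1h2aa held 4 CCAAT boxes, 2 TATA boxes, 1 octamer and 1 H1 box, and no other divergent pair held an H1 box or 2 TATA boxes. A 13th divergent pair, Hist1h2bh and Hist1h3f, joins an H2B to an H3 gene across 659 bp.

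Promoters of single genes differed by family. The 150 bp before the start are shown for 3 linker histone genes (Hist1h1b and Hist1h1a, whose regions changed, and the testis gene Hist1h1t, which had no peak), for Hist1h4h, whose region also changed, and for the H3 genes with the highest and the lowest fold enrichment, Hist1h3e and Hist1h3d. Each is written 5′ to 3′ on the strand of its gene from GRCm38, at chr13:21780626-21780775 (minus strand), chr13:23763516-23763665, chr13:23695664-23695813, chr13:23530900-23531049, chr13:23562370-23562519 (minus strand) and chr13:23575613-23575762 in this order, with capitals as above.
Hist1h1b: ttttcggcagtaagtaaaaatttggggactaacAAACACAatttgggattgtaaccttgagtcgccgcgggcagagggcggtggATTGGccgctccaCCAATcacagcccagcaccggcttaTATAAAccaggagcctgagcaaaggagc
Hist1h1a: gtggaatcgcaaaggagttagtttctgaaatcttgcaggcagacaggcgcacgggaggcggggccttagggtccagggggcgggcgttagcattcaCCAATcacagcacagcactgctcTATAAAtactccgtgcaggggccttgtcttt
Hist1h1t: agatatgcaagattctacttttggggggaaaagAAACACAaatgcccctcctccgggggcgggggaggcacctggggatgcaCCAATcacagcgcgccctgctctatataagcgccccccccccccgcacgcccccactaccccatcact
Hist1h4h: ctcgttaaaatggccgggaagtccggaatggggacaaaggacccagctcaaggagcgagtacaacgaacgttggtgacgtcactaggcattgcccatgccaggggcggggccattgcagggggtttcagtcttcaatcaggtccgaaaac
Hist1h3e: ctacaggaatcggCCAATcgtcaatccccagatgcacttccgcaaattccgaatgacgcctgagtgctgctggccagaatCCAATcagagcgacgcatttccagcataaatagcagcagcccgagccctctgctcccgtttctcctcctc
Hist1h3d: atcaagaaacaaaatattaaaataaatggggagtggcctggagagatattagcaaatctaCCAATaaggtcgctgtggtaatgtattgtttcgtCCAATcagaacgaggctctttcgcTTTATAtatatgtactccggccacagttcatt

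RefSeq promoters on GRCm38, from 250 bp before to 50 bp after the start, were matched for 62 of the 67 genes. CCAAT was found in 85.5% of these 62 and in 37.4% of all 32817 promoters, and at least 2 copies in 71.0% and 11.7%. It was present in every matched H1, H2A, H2B and H3 promoter but in only 3 of 12 H4 promoters. TATAAA was found in 56.5% of the histone promoters and 13.6% of all promoters. The octamer was found in 7 of 18 H2A and 6 of 16 H2B promoters and in none of the H1, H3 and H4 promoters, against 1.74% of all promoters. AAACACA, the letters of the H1 box, was found in 5 of 6 H1 promoters, in 14.5% of histone promoters and in 7.19% of all promoters. Promoters of divergent partners overlap, so the same site can count for both genes, and these promoters are not independent. These are matches of letters, not sites shown to be bound.

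Several histone genes are near-identical copies, which limits how reads can be placed. Of the 50-base words within 1 kb of a start, a median of 17.9% per gene also occurred near another histone gene start. For 10 genes the share was above 50%: Hist1h2br, Hist1h2ap and Hist1h2ao (100%), Hist1h2bq (99.9%), Hist2h3c1 (78.5%), Hist1h4n (78.5%), Hist1h4m (78.0%), Hist2h3c2 (77.6%), Hist2h2aa2 (57.2%) and Hist2h2aa1 (54.4%). Values at these 10 are uncertain, since reads could have been placed at either copy. All 6 H1 genes were under 5%.

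Most histone genes were open in every library. A peak with its summit within 1 kb of the start was present in all 10 libraries for 52 of the 67 genes (77.6%), against 53.6% of the other 21884 protein-coding genes. By library, the number of histone genes with such a peak was 62, 60 and 60 in WT PRO, 62, 62 and 59 in WT DIFF, 63 and 60 in p27KO PRO, and 62 and 61 in p27KO DIFF. The 4 groups overlapped. A peak lay over the start itself in all 10 libraries for 59 genes and in none for 4.

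The 4 genes without a peak over the start were Hist1h1d, Hist1h1t, Hist1h2ba and Hist1h2aa. Hist1h1t, the linker histone of spermatocytes, had its nearest summit 1730 bp away. Hist1h2ba and Hist1h2aa, the H2B and H2A forms of the testis, had a peak of at most 118 bp inside Hist1h2ba in 4 libraries (WT PRO 1 and 3, WT DIFF 3 and p27KO PRO 1), and their nearest summits lay 281 and 587 bp from the starts. Their peak stood at the percentiles 53.1, 20.7, 47.3 and 66.9 of fold enrichment in these 4 lists. Hist1h1d, a linker histone of dividing cells, had its nearest summit 1490 bp from the start in GENCODE, the gene closest to the 1 kb limit on its outer side. The RefSeq start of the same gene, 1770 bp downstream at position 23555032, had a summit within 1 kb in all 10 libraries, the nearest at 4 bp, at a median percentile of 75.1 (range 64.2 to 78.6). On the inner side of the limit, the nearest summit of Hist2h3b was 931 bp away.

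In 10 further genes a summit within 1 kb was present in every library of 1 group and missing in a library of another, and all 10 had a peak over the start in all 10 libraries. Hist1h1e had a summit within 1 kb in 0 of 3 WT PRO, 2 of 3 WT DIFF, 1 of 2 p27KO PRO and 2 of 2 p27KO DIFF libraries, and in the others the summit of the wide peak over Hist1h1e and Hist1h2be lay more than 1 kb away. Hist1h4n had one in 1, 3, 2 and 2 libraries of the same groups, Hist2h2ab in 1, 3, 2 and 1, and Hist2h2aa2 in 1, 3, 2 and 2. Hist1h1b had one in 3, 2, 1 and 2 libraries, Hist1h2bh in 3, 2, 2 and 1, and Hist1h2be in 3, 2, 1 and 2. Hist1h3c and Hist2h2aa1 each lacked one in 1 WT DIFF library, and Hist2h3c1 lacked one in 1 WT PRO library. Absence of a summit within 1 kb was thus not absence of a peak at these 10 genes.

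**Figure D1:**
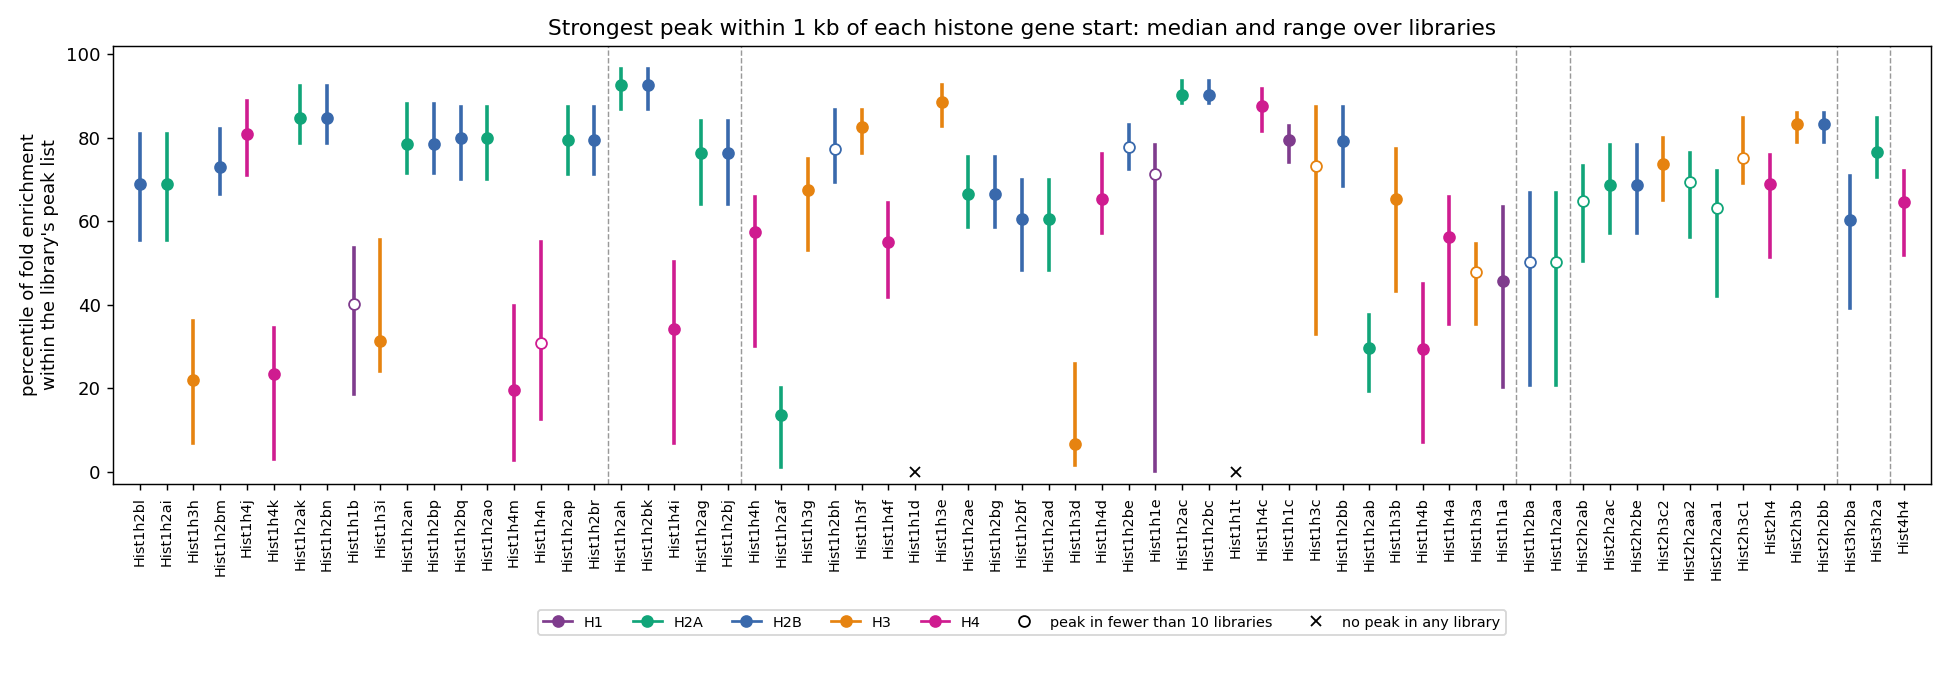
Percentile of fold enrichment, within each library's own peak list, of the strongest peak within 1 kb of each of the 67 histone gene starts, in genome order and coloured by family. Points are medians and lines ranges over the libraries with a peak, dashed lines separate the 7 blocks, and crosses mark Hist1h1d and Hist1h1t, which had no such peak. H2A and H2B partners share a value where they share a peak, and H3 genes spread from 6.74 to 88.5.

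The height of the peaks was read from the fold enrichment, the ratio of fragments piled up at the summit to the background expected around it, as a percentile within each list. That background was higher at histone genes than at other genes in every library, as given below. Its part in these percentiles was not tested. By fold enrichment histone starts were open but not among the strongest promoters. Their median percentile was 69.7, 67.8 and 66.0 in WT PRO, 73.6, 72.3 and 78.2 in WT DIFF, 71.6 and 69.9 in p27KO PRO, and 75.4 and 71.5 in p27KO DIFF libraries, while the median of other genes ran from 81.7 to 86.6. The medians of the WT DIFF libraries all lay above those of the WT PRO libraries, and in p27KO the lower DIFF value (71.5) lay just below the higher PRO value (71.6).

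Families differed in level. The median over genes was the percentile 77.6 for H2B, 70.3 for H3, 69.3 for H2A, 58.4 for the 4 H1 genes with a peak and 56.2 for H4. The H1 value leaves out Hist1h1d, which stood at a median of 75.1 at its RefSeq start. The place of H1 in this order therefore depends on the start used. The divergent pair Hist1h2ah and Hist1h2bk stood highest at a median of 92.5 (range 86.8 to 96.6), with the pair Hist1h2ac and Hist1h2bc next at 90.4 (88.2 to 93.7). Hist1h3e at 88.5 and Hist1h4c at 87.7 followed, and their ranges overlapped with those of both pairs. The lowest were Hist1h3d at 6.74 (1.57 to 25.8), Hist1h2af at 13.5 (1.12 to 19.9), Hist1h4m at 19.6 and Hist1h3h at 22.1, all with a peak in all 10 libraries. Members of 1 family thus spanned most of the range within a library, from Hist1h3d to Hist1h3e among H3 genes.

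The genes that stand apart from the large clusters were open in every library as well. Hist4h4 had the percentiles 58.8, 51.8 and 65.3 in WT PRO, 68.5, 68.8 and 71.9 in WT DIFF, 59.5 and 61.1 in p27KO PRO, and 65.6 and 64.1 in p27KO DIFF libraries. DIFF lay above PRO without overlap in both genotypes, but the region passed no test (WT difference of normal scores 0.44 ± 0.18, SE, adjusted p = 0.118). Hist3h2a ranged from 70.7 to 84.8 and Hist3h2ba from 39.2 to 70.9 over the 10 libraries, with adjusted p = 0.145 and 0.0589 for DIFF against PRO in WT.

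Peaks were merged over all lists into 137454 regions, and 45 of these had a summit within 1 kb of a histone start. A region with a peak in at least 5 libraries was tested, which left 43 of 45 histone regions and 70627 regions in all. All 43 had a peak in all 10 libraries. Of the 43, 23 had a summit within 1 kb of 1 histone start, 18 of 2 and 2 of 3. Hist1h3e had a second region of its own, 942 to 975 bp upstream of the start.

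Histone regions were wide. Their median width was 1496 bp, against 1151 bp for 10986 regions at starts of protein-coding genes, and 9 of 43 (20.9%) were 2 kb or wider, against 3.93%. The widest was chr13:21831496-21834592 with 3097 bp over Hist1h4n, Hist1h2ap and Hist1h2br, followed by 2602 bp over Hist1h2bh and Hist1h3f at chr13:23542431-23545032 and 2565 bp over Hist1h2be and Hist1h1e at chr13:23620487-23623051. Width came partly from merging: the region of Hist1h4n was a single peak in 2 of the 10 libraries and held up to 4 in the others.

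Within single libraries, 26.5 to 40.0% of the peaks over a histone start covered at least 2 histone starts, while 9.98 to 10.5% of all peaks over a gene start covered 2 or more. Because histone genes are short, with a median of 539 bp, a peak could enclose a gene from end to end. This held for 11.9 to 38.8% of histone genes per library and for 2.54 to 3.82% of 786 other genes of at most 1078 bp. Hist2h3b, Hist1h2bm, Hist1h2bn, Hist1h2ah and Hist1h4h lay wholly inside a peak in all 10 libraries.

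To ask how the histone regions changed at mitogen withdrawal in WT, regions were ordered within each library by their highest fold enrichment, the ranks were turned into normal scores (standard normal deviates, so that 1 is 1 SD of all regions), and groups were compared with limma over all 70627 regions. Of the 43 histone regions, 6 were called, all 6 higher at DIFF, against 19.2% called of all regions and 4.22% of 12288 regions at gene starts. The call rate of 14.0% was thus below that of all regions. Still, 42 of the 43 had a higher normal score at DIFF when ranked by fold enrichment, but only 19 of 43 when ranked by the pileup of fragments alone. The median difference was 0.38 by fold enrichment, against 0.03 over all regions and 0.12 over regions at gene starts, and −0.02 by pileup. In 28 of 43 the normal scores of the DIFF libraries all lay above those of the PRO libraries, against 18.4% of all regions. Scores rank all tested regions, with those lacking a peak tied lowest, whereas percentiles rank only the peaks of a library's own list. Score and percentile can therefore move in opposite directions.

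**Figure D2:**
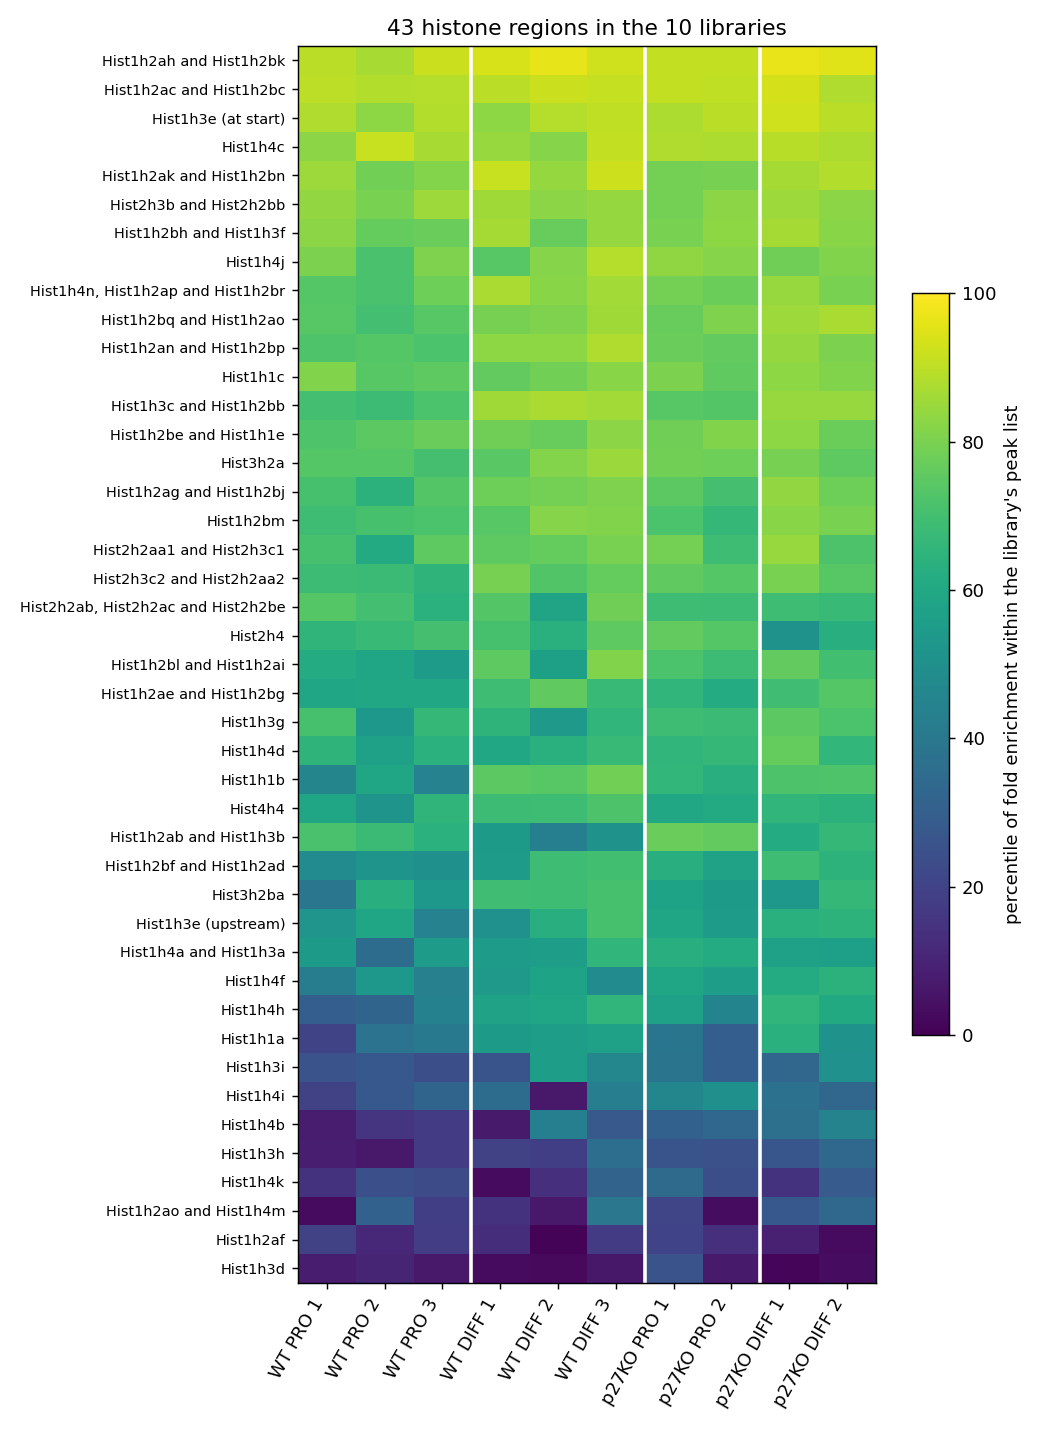
Percentile of fold enrichment of the strongest peak in each of the 43 tested histone regions (rows, named by their genes) in the 10 libraries (columns, white lines between the 4 groups), ordered by the mean over libraries. Colour runs from 0 to 100, and most rows brighten from PRO to DIFF in WT. Some darken, such as Hist1h3d (mean 8.33 in WT PRO and 4.03 in WT DIFF) and Hist1h2af (16.3 and 10.7). By normal score of fold enrichment only Hist1h2ab with Hist1h3b was lower at DIFF in WT. Ranked by pileup alone, 19 of 43 were higher at DIFF.

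Among the linker histones, 2 regions were called. The Hist1h1b region (ENSMUSG00000058773, chr13:21779008-21780727) stood at the percentiles 45.7, 59.3 and 44.4 in WT PRO and 75.0, 74.1 and 78.6 in WT DIFF, and at 66.0 and 62.9 in p27KO PRO and 72.2 and 72.4 in p27KO DIFF. The groups did not overlap in either genotype, and the WT difference of normal scores was 0.86 ± 0.18 (SE, adjusted p = 0.00598, limma). This value belongs to the far end of the gene: Hist1h1b was the only 1 of 43 regions whose strongest summit lay beyond 1 kb of a histone start, 1084 to 1196 bp downstream and past the 3′ end of the gene in all 10 libraries. The peak at the start itself stood at 42.1, 35.5 and 43.7 in WT PRO and at 18.7 and 24.4 in WT DIFF 1 and 2, while in WT DIFF 3 a single peak covered both ends. For the start the WT difference was −0.34 ± 0.31 (SE, adjusted p = 0.618), and it rests on WT DIFF 3, which was ranked as having no peak at the start. The normal scores at the start were −1.32, −1.43 and −1.27 in WT PRO, −1.37 and −1.28 in WT DIFF 1 and 2, and −2.38 in WT DIFF 3, so without that library PRO and DIFF overlapped.

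The Hist1h1a region (ENSMUSG00000049539, chr13:23763465-23764007) stood at 20.4, 38.0 and 40.5 in WT PRO and 54.5, 55.8 and 57.2 in WT DIFF, a difference of 0.74 ± 0.21 (SE, adjusted p = 0.0331). In p27KO it stood at 38.9 and 30.0 in PRO and 63.4 and 50.8 in DIFF, a difference of 0.88 ± 0.26 (SE) that missed the threshold (adjusted p = 0.0504). Its summits lay 5 to 48 bp upstream of the start. Hist1h1c, which stood at 74.1 to 82.8 over the 10 libraries, gave 0.17 ± 0.16 (SE, adjusted p = 0.509).

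Of the divergent H2A and H2B pairs, 1 was called. The region of Hist1h2an and Hist1h2bp (chr13:21786711-21787992) stood at 72.5, 73.6 and 71.5 in WT PRO, 83.2, 83.1 and 88.2 in WT DIFF, 77.0 and 76.0 in p27KO PRO, and 84.2 and 80.1 in p27KO DIFF. The groups did not overlap, with a WT difference of 0.55 ± 0.16 (SE, adjusted p = 0.0333). The pairs with the highest fold enrichment, Hist1h2ah with Hist1h2bk and Hist1h2ac with Hist1h2bc, gave 0.40 ± 0.19 and 0.18 ± 0.18 (SE, adjusted p = 0.172 and 0.531).

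The region of Hist1h3c and Hist1h2bb (chr13:23745230-23747193), an H3 and an H2B gene more than 1 kb apart, stood at 70.3, 68.4 and 71.6 in WT PRO and 85.6, 87.4 and 86.3 in WT DIFF, and at 74.0 and 73.2 in p27KO PRO and 84.5 and 84.5 in p27KO DIFF. The WT difference was 0.68 ± 0.17 (SE, adjusted p = 0.0147), and the strongest summit lay 63 to 191 bp before Hist1h2bb in all 10 libraries. Hist1h3h (ENSMUSG00000101355, chr13:21717275-21717943), a low H3 promoter, stood at 8.54, 6.82 and 17.8 in WT PRO, 19.5, 18.4 and 36.2 in WT DIFF, 26.2 and 24.6 in p27KO PRO, and 26.8 and 33.6 in p27KO DIFF. Its WT difference was 0.61 ± 0.18 (SE, adjusted p = 0.0343). Both p27KO PRO percentiles lay above all WT PRO percentiles. The normal scores at its start overlapped, at −1.92, −1.99 and −1.74 in WT PRO and −1.81 and −1.66 in p27KO PRO.

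Among H4 genes, Hist1h4h (ENSMUSG00000060981, chr13:23530290-23531864) stood at 30.0, 32.1 and 44.1 in WT PRO, 57.7, 59.1 and 65.7 in WT DIFF, 57.1 and 45.1 in p27KO PRO, and 65.9 and 60.8 in p27KO DIFF. The WT difference was 0.82 ± 0.19 (SE, adjusted p = 0.0106). Its strongest summit lay past the 3′ end of the gene in 4 of 10 libraries and within 692 bp of the start in all. Hist1h4c, the H4 gene with the highest fold enrichment, stood at 82.6, 91.6 and 87.0 in WT PRO and 84.5, 81.7 and 90.7 in WT DIFF, and gave 0.03 ± 0.18 (SE, adjusted p = 0.936).

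A single region had a lower normal score of fold enrichment at DIFF in WT, that of Hist1h2ab and Hist1h3b (chr13:23750986-23752791). This region had its strongest summit inside Hist1h3b in all 10 libraries. It stood at 71.2, 68.3 and 64.02 in WT PRO, 54.4, 43.3 and 51.2 in WT DIFF, 77.3 and 76.0 in p27KO PRO, and 61.6 and 66.6 in p27KO DIFF. DIFF lay below PRO without overlap in both genotypes, with a WT difference of −0.33 ± 0.18 (SE, adjusted p = 0.236). At the start of Hist1h2ab, the H2A gene at the other end of the region, the percentiles ran from 19.3 to 27.6 in WT PRO and from 29.1 to 36.4 in WT DIFF. Percentiles within whole lists fell in other regions too. Hist1h3d stood at 7.73, 10.2 and 7.03 in WT PRO and at 2.90, 2.73 and 6.45 in WT DIFF. These did not overlap, although its normal score was higher at DIFF.

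**Figure D3:**
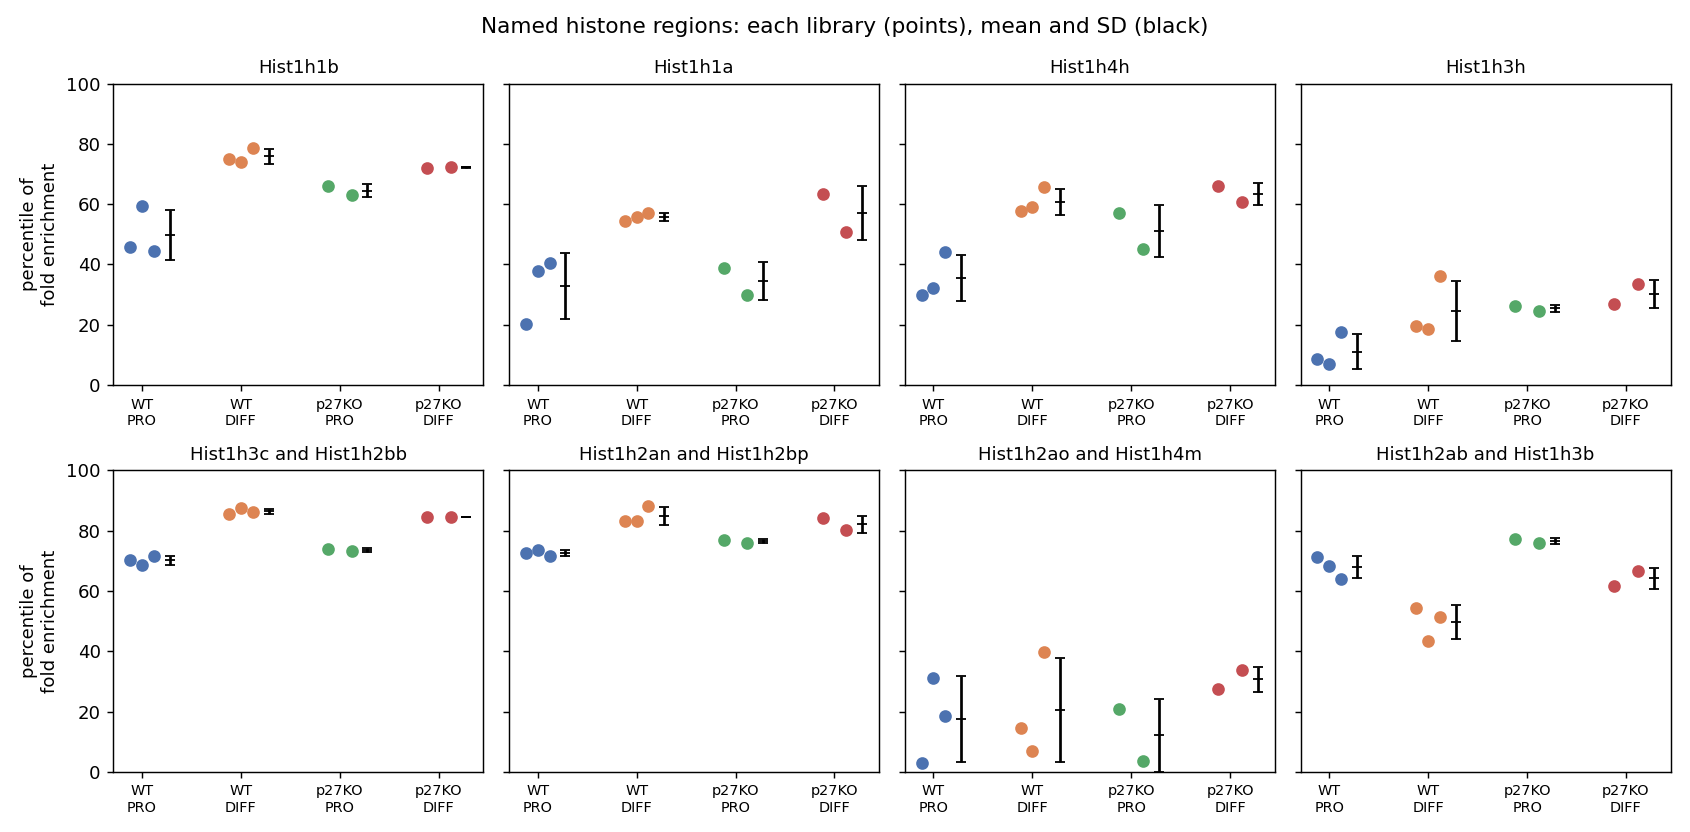
Percentile of fold enrichment in each library (points) with mean and SD (black) of named histone regions. They are the 6 called in WT, the region over Hist1h4m (titled with Hist1h2ao, which lies within 1 kb of it), called in p27KO, and Hist1h2ab with Hist1h3b. Of all tested histone regions, only the last had a lower normal score at DIFF in WT. In the 6 called in WT every DIFF point lies above every PRO point of the same genotype; by pileup alone none of the 6 was called.

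Some of these calls rested on single libraries. The number called in WT fell from 6 to 3 without WT PRO 1, without WT DIFF 1 or without WT DIFF 2. Hist1h1b and Hist1h4h kept their calls whichever of the 10 libraries was left out, Hist1h3c with Hist1h2bb lost its call without WT DIFF 2 (adjusted p = 0.0503), Hist1h1a and Hist1h3h lost theirs without WT PRO 1, WT PRO 2, WT DIFF 1 or WT DIFF 2 (0.0587 to 0.118), and Hist1h2an with Hist1h2bp lost its call without any 1 of the 6 WT libraries (0.0559 to 0.0847).

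In cells without p27, 1 of 43 histone regions (2.33%) was called for DIFF against PRO, against 12.3% of all regions and 1.75% of regions at gene starts. An unadjusted p under 0.05 by limma was found for 9 of 43 (20.9%), against 25.7% of all regions. The 1 called was the region over the H4 gene Hist1h4m at chr13:21811132-21812430, 1 of the 10 near-identical genes, to whose start its strongest summit was nearest in all 10 libraries. Hist1h2ao has a summit of this region within 1 kb but lies outside it, and its start is in the region shared with Hist1h2bq, which was not called. The Hist1h4m region had percentiles of 20.7 and 3.42 in p27KO PRO and 27.6 and 33.6 in p27KO DIFF and a difference of 0.81 ± 0.24 (SE, adjusted p = 0.0477). In WT the same region stood at 2.80, 31.2 and 18.4 in PRO and 14.5, 6.79 and 39.8 in DIFF, so PRO and DIFF overlapped. The p27KO call was lost without WT PRO 3, without any WT DIFF library and without any p27KO library (adjusted p = 0.0558 to 0.210), and without WT PRO 1 a total of 2 histone regions were called. Among the 43, 41 had a higher normal score at DIFF by fold enrichment and 23 by pileup. The median difference was 0.34 by fold enrichment, against 0.04 over all regions and 0.14 over regions at gene starts. DIFF lay above PRO without overlap in 37 of 43, against 29.9% of all regions in this comparison of 2 with 2 libraries.

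No difference between the genotypes passed a test. The interaction, which draws on the same libraries as both comparisons above, called 0 of 43 histone regions with limma, with 0 at an unadjusted p under 0.05, and 0% of all regions. The regions furthest apart were Hist2h4, with 0.20 in WT and −0.29 in p27KO (interaction −0.49 ± 0.26, SE), and Hist1h1b, with 0.86 and 0.44 (−0.42 ± 0.28, SE), both at adjusted p = 1.00. Between p27KO and WT, 0 of 43 were called at PRO (0 at an unadjusted p under 0.05; 0.034% of all regions) and 0 of 43 at DIFF (0 at an unadjusted p under 0.05; 0.0156% of all regions). With 2 p27KO libraries per condition, differences larger than the errors given here could also go uncalled. The lack of calls therefore does not show that the genotypes were alike.

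The same comparison was run gene by gene, with the strongest peak within 1 kb of each start ranked over 13199 genes, which does not depend on merging. Divergent partners that share a peak carry the same value, as Hist1h2ai and Hist1h2bl did. Such a peak counts for both genes below, so the genes are not independent. Of 62 histone genes tested, 1 was called in WT, against 1.2% of all genes, and 27 (43.5%) had an unadjusted p under 0.05, against 17.1%. It was Hist1h2bb, an H2B gene, at 0.75 ± 0.16 (SE, adjusted p = 0.0494), a call lost without any 1 of 9 libraries, WT DIFF 3 being the exception (adjusted p up to 0.151). In p27KO 0 of 62 were called by limma, 6 (9.68%) had an unadjusted p under 0.05, against 11.5% of all genes, and 0.227% of all genes were called. By fold enrichment 52 of 62 had a higher normal score at DIFF in each genotype, with medians of 0.36 in WT and 0.23 in p27KO. By pileup 18 of 62 in WT and 14 of 62 in p27KO had a higher score.

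Within each family the extremes in WT were often genes whose summit moved along a shared peak. Among H1 genes they were Hist1h1e at 1.41 ± 0.56 (SE, adjusted p = 0.225), which had no summit within 1 kb in WT PRO, and Hist1h1b at −0.34, which rests on WT DIFF 3. Among H2A genes they were Hist2h2aa2 at 1.34 ± 0.37 (SE, adjusted p = 0.100) and Hist2h2aa1 at −0.09, and among H2B genes Hist1h2bb at 0.75 and Hist1h2bh at −0.40 ± 0.62 (SE, adjusted p = 0.780). Among H3 genes they were Hist2h3c1 at 0.82 ± 0.42 (SE, adjusted p = 0.346) and Hist1h3b at −0.39 ± 0.17 (SE, adjusted p = 0.259), and among H4 genes Hist1h4h at 0.66 ± 0.16 (SE, adjusted p = 0.0675) and Hist1h4c at −0.15. Of these, Hist1h3b, Hist1h4h, Hist1h4c and Hist1h2bb had a summit within 1 kb in all 10 libraries.

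Fold enrichment is a ratio, and its parts moved differently at the histone genes. The pileup at each summit and the local background were solved from the fold enrichment and the p-value of each peak, and gave whole-number pileups, within 0.05, for 100% of the histone peaks. Ranked by pileup within each library, 2 of 43 histone regions (4.65%) were called in WT, both lower at DIFF, against 20.6% of all regions and 5.16% of those at gene starts. In p27KO 1 of 43 (2.33%) was called, lower as well, against 14.1% and 2.41%. None of the 6 regions called by fold enrichment in WT was called by pileup. The median difference by pileup was −0.02 in WT and 0.00 in p27KO.

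**Figure D4:**
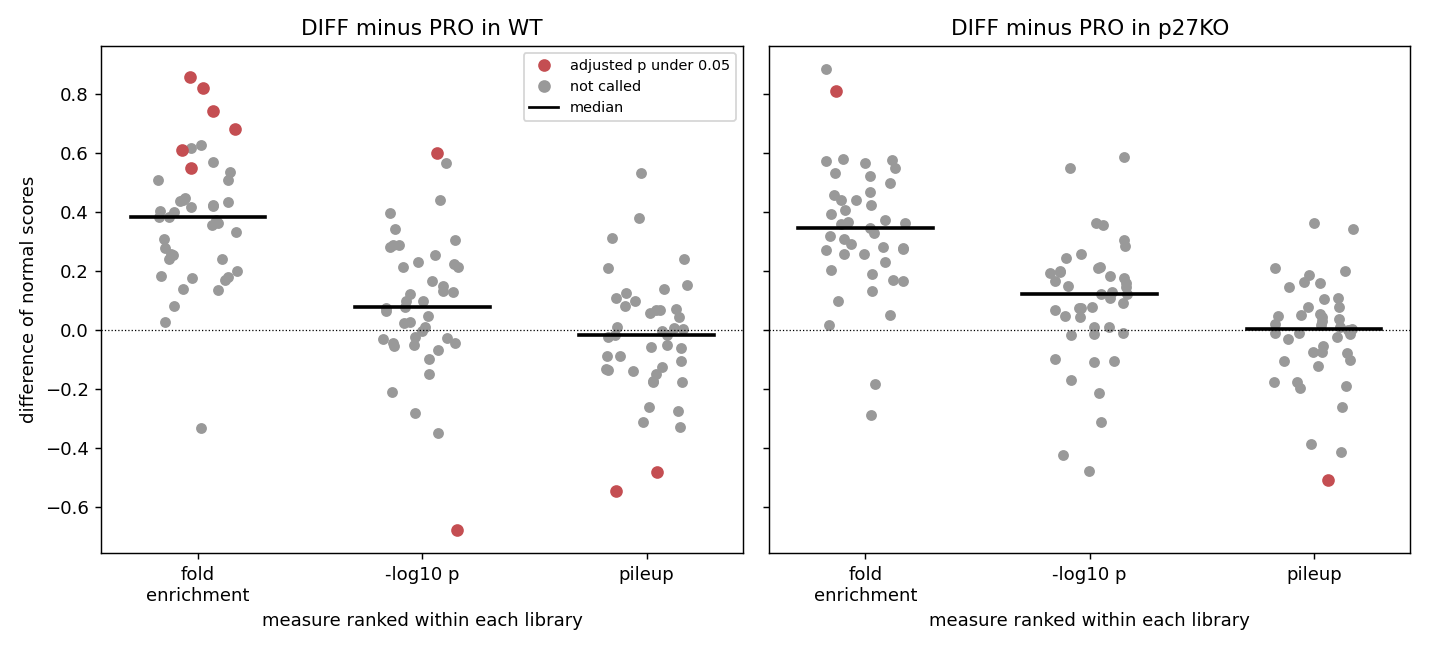
Difference of normal scores, DIFF minus PRO, of each of the 43 histone regions (points) in WT and p27KO when regions are ranked within each library by fold enrichment, by −log10 p or by pileup. Bars are medians and red points passed an adjusted p of 0.05; the median in WT runs from 0.38 by fold enrichment to 0.08 by −log10 p and −0.02 by pileup.

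The 2 regions that fell by pileup in WT each held an H3 gene. For Hist1h2ab with Hist1h3b the pileup at the summit was 96, 131 and 82 fragments in WT PRO and 35, 33 and 52 in WT DIFF, and 120 and 114 in p27KO PRO and 47 and 59 in p27KO DIFF. This region fell in both genotypes, by 0.55 in WT (adjusted p = 0.0118) and 0.51 in p27KO (adjusted p = 0.0481) on the scale of normal scores. For Hist1h3g the pileup was 161, 155 and 140 in WT PRO, 76, 64 and 136 in WT DIFF, 167 and 151 in p27KO PRO, and 109 and 134 in p27KO DIFF. It fell by 0.48 in WT (adjusted p = 0.0345), and in p27KO the difference was −0.08 (adjusted p = 0.820). Fragment counts also differed between libraries as a whole. The median pileup over the 43 regions was 85, 118 and 91 in WT PRO and 66, 68 and 136 in WT DIFF. In p27KO it was 120 and 104 in PRO and 75 and 86 in DIFF.

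The local background around histone peaks was high in proliferating cells. Relative to the most frequent background value of the same list, its median over histone genes was 4.87, 5.48 and 4.42 in WT PRO, 3.18, 2.95 and 4.48 in WT DIFF, 4.81 and 4.65 in p27KO PRO, and 3.45 and 4.06 in p27KO DIFF, while other genes had medians of 1.60 to 2.14. In p27KO the DIFF medians lay below the PRO medians, and in WT 2 of 3 DIFF medians did, with WT DIFF 3, the library with the long list, inside the PRO range. Of the 43 histone regions, 10 (23.3%) were called lower at DIFF in WT on a log2 scale, against 16.8% called of all regions and 13.2% of those at gene starts. All 43 had a lower value, while 31.2% of all regions and 8.65% of those at gene starts had a higher one. The median difference was −0.57, against −0.15 over all regions and −0.26 at gene starts. In p27KO 0 of 43 were called by limma, where 5.54% of all regions and 1.46% of those at gene starts were called. An unadjusted p under 0.05 was found for 4 of 43 and for 18.2% of all regions. The median was −0.38, and 41 were lower, while 41.3% of all regions and 28.4% of those at gene starts were higher.

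**Figure D5:**
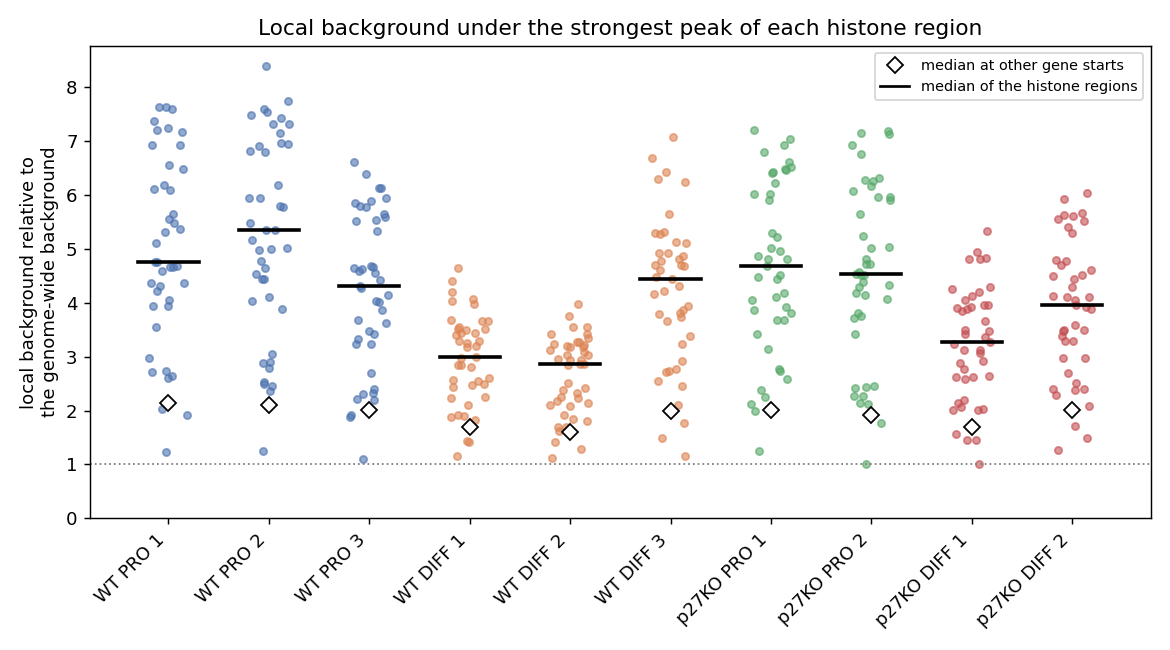
Local background under the strongest peak of each of the 43 histone regions (points), relative to the most frequent background value in the list of the same library, with the median over regions (bar) and the median at starts of other genes (diamond). Medians over regions run from 4.31 to 5.34 in WT PRO and stand at 3.00, 2.87 and 4.44 in WT DIFF, above the diamonds in every library.

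The regions called lower in background at DIFF in WT were led by Hist1h2ab with Hist1h3b at −0.96 (adjusted p = 0.00824), from 3.95, 4.44 and 3.47 in WT PRO to 1.82, 1.84 and 2.46 in WT DIFF. They also held Hist1h4i, Hist2h4, Hist1h4b, Hist1h2af, Hist1h3g, the pair Hist1h2ag and Hist1h2bj, and all 3 regions of the near-identical genes on chromosome 13. Hist1h1b and Hist1h4h, called by fold enrichment, stood at −0.48 (adjusted p = 0.151) and −0.77 (adjusted p = 0.0510). The count rested on single libraries. Without WT DIFF 3, 38 of 43 histone regions were called lower in WT and 4 in p27KO, while 1 was called in WT without WT DIFF 1 or WT DIFF 2, 2 without WT PRO 1 or WT PRO 2, 4 without either p27KO PRO library and 5 without WT PRO 3. Without WT PRO 2, 1 was called in p27KO. The part of depth and list length in the background was not tested.

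The width of the regions gave no call. By the bases covered by peaks, 0 of 43 were called in WT with limma, with 9 (20.9%) at an unadjusted p under 0.05, against 18.1% of all regions, and 0.544% of all regions called, and 0 of 43 in p27KO, with 3 (6.98%) at an unadjusted p under 0.05, against 10.5%, and 0.00528% of all regions called. The median log2 difference was −0.15 in WT and −0.09 in p27KO, against −0.19 and −0.11 over all regions. Without WT DIFF 3, 6 of 43 were called narrower at DIFF in WT.

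The blocks differed in how the normal scores of the measures moved. In the 18-gene block on chromosome 13, 12 of 12 regions were higher at DIFF in WT by fold enrichment and 6 of 12 by pileup, with medians of 0.48 and −0.01, and in the 29-gene block 19 of 20 and 6 of 20, with medians of 0.28 and −0.06. In the 5-gene block on chromosome 13, 3 of 3 were higher by fold enrichment and 0 of 3 by pileup, with medians of 0.40 and −0.26. In the Hist2 cluster 5 of 5 were higher by fold enrichment and 4 of 5 by pileup, with medians of 0.20 and 0.06, and both regions of Hist3 genes were higher by either measure, with medians of 0.50 and 0.39. These differences between blocks were not tested.

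Genes that act on histone supply, and genes of the replication-independent variants, gave no call. Of 36 such genes, 33 were tested and 0 were called in either genotype by limma, where 1.2% of all genes were called in WT and 0.227% in p27KO. An unadjusted p under 0.05 was found for 8 in WT and 5 in p27KO, against 17.1% and 11.5% of all genes. By the strongest peak within 1 kb of the start, the median percentile was 86.7 for transcription, 93.5 for 3′ end processing, 92.6 for chaperones and assembly and 77.8 for the variants, and 22 of 33 were higher at DIFF in WT. The 8 genes of histone gene transcription had a peak in all 10 libraries, with Npat, the coactivator, at a median of 96.6, and Ccne1, which encodes cyclin E1, had the lowest adjusted p of the 33 in WT (0.84 ± 0.20, SE, adjusted p = 0.0661). Among the 8 chaperone and assembly genes, Chaf1b, a subunit of chromatin assembly factor 1, stood at 0.97 ± 0.26 (SE, adjusted p = 0.0855) and Hat1, which acetylates new H4, at 0.88 ± 0.28 (SE, adjusted p = 0.143). Of 9 genes of 3′ end processing, Zfp473 had no peak in any library, and Slbp, the stem-loop binding protein, stood at 0.31 ± 0.18 (SE, adjusted p = 0.410). Among 11 genes of replication-independent variants, H3f3b had no peak within 1 kb of its annotated start, H1fx had one in 1 library, H2afy lacked one in WT DIFF 3 and H2afy2 lacked one in WT PRO 2.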

How the data were processed

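The authors trimmed reads with Cutadapt and Trimmomatic, aligned them to GRCm38 with Bowtie2 (dovetailing allowed), flagged duplicates in Picard and ran MACS2 on each library for narrow peaks without a model at an FDR of 0.05; versions, and the handling of reads that map to several places, are not given in the sources used here. As deposited, each list gives MACS2's fold enrichment (a ratio), −log10 p and −log10 q-values (lowest 1.30), a summit and a score that was not used. The authors' own test, DiffBind, needs alignments not used here.

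Starts were taken from GENCODE release 21 (the authors used 18). Overlapping peaks were merged, and regions or genes with a peak in at least 5 of 10 libraries were compared over the 4 groups with limma 3.58.1 (R 4.3.3) on normal scores of within-library ranks, with Benjamini-Hochberg adjustment over all features and a threshold of 0.05. Libraries without a peak shared the lowest rank. Scripts (Python 3.11.15) were tested on simulated data. Local background and width were tested on log2 values at regions with a peak in all 10 libraries.

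The members and lists were chosen with earlier results of these data known. Named genes were those called, the largest rise and fall per family in WT, those with presence differing between groups, germ line genes, the widest regions, genes without a peak or nearest to the 1 kb limit, the Hist3 genes and Hist4h4. Other genes, including the highest and lowest and those of the pathway with a peak in all libraries, were named after their values were seen. The labels used here name no batch.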

Additional observations from a re-analysis of the deposited data

How the results depend on the processing

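The number of histone regions called at DIFF in WT (6) was 2 when ranked by −log10 p, 1 of them lower, and 2 by pileup, both lower. It was 3 with regions found in at least 2 libraries, 3 with only the 2 groups compared and 10 on centred log2 fold enrichment. In p27KO (1) it was 0 by −log10 p, with regions in at least 2 or in all 10 libraries and with only the 2 groups, and 2 at a −log10 q of at least 3. The median change fell from 0.38 to 0.0793 by −log10 p and reversed to −0.0183 by pileup in WT, and went from 0.34 to 0.12 and 0.0036 in p27KO. Leaving out 1 library gave 3 to 7 calls in WT and 0 to 2 in p27KO. Gene windows called in WT (1) numbered 1 by −log10 p (lower) and 3 by pileup (lower). They numbered 2 with the top 57000 peaks, 0 with genes in at least 2 libraries, 2 with genes in all 10, 0 at 500 bp and 4 at 3 kb. With 1 library left out they numbered 0 to 1, and in p27KO 1 was called by pileup. Width gave 1 call in WT when divided by the library's median width and 0 to 6 with 1 library left out. Background calls centred on the median at gene starts numbered 24 in WT and 7 in p27KO, and with 1 library left out 1 to 38 and 0 to 4. Histone genes with a peak averaged 55, 56.3, 58.5 and 57.5 at 500 bp and 66.3, 65.7, 66 and 65 at 3 kb in the order WT PRO, WT DIFF and then the same in p27KO. The interaction and both genotype comparisons gave 0 histone regions under every alternative run. The cause of these shifts was not tested. Alternatives by pileup and background were chosen after seeing the data. Depth is unknown, so peaks missed for want of reads cannot be counted.

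Replicate numbers were shared between PRO and DIFF, and whether they pair the samples could not be settled. In WT, deviations of same-numbered libraries correlated at 0.057, 0.065 and 0.033, and those of different numbers at −0.051 to −0.0048. In p27KO the values were −0.14 for the same and 0.14 for different numbers, which with 2 libraries per group are not independent. With the replicate block, 3 histone regions were called in WT, 0 in p27KO, 0 gene windows and 1 region on the background in WT. With the crossed replicate block, 4 were called in WT and 0 in p27KO.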
